A study of Mus musculus with 4 samples.

Results

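The miR-17-92 and miR-290 clusters are 2 groups of microRNA genes whose products are abundant in mouse embryonic stem cells (ESCs). Peaks of Myc and its partner Max were sought at both. The members were 10 listed microRNA genes, Mir17, Mir18, Mir20a and Mir92-1 of the miR-17-92 cluster and Mir290, Mir291a, Mir292, Mir293, Mir294 and Mir295 of the miR-290 cluster, out of 1577 microRNA genes and 37310 genes in the GENCODE M1 annotation of the mm9 genome. All 10 were annotated, and the annotation placed 3 further microRNA genes between them, Mir19a and Mir19b-1 in the first cluster and Mir291b in the second. Peaks were taken from 10 kb upstream of the first to 5 kb downstream of the last microRNA of each cluster. The Bio-Myc ChIP-Seq used a stable clone of E14 mouse ESCs, derived from cells that carry the biotin ligase BirA, with Myc expressed from the EF1α promoter and fused at its N-terminus to a tag that the ligase biotinylates. Chromatin of this 1 clone was purified on streptavidin beads and compared with a mock ChIP, whose cells are parental wild type in the labels and BirA-ES cells without tagged protein in the methods. The Max ChIP-Seq used an anti-Max antibody in parental wild-type E14 cells, with an IgG ChIP as its control. Each ChIP had 1 library, so no value below has an error between cultures, and the 2 control samples were not analysed here. The lists give no read numbers, so the depth is unknown, and they hold no expression, so the label of the cells could not be set against markers.

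Myc and Max are basic helix-loop-helix leucine zipper proteins that bind DNA as a heterodimer. Their preferred site is the E-box, and Max also pairs with itself and with Mxd proteins, so a Max peak can mark other dimers than Myc-Max. A microRNA cluster is transcribed as a single long RNA, from which Drosha and Dgcr8 cut hairpins in the nucleus and Dicer1 the mature microRNAs in the cytoplasm. The mature microRNA finds its target mRNAs mainly through its seed, the bases near its 5′ end. The miR-17-92 cluster is known as a direct target of Myc in tumour cells and lowers proteins that hold back the cell cycle or promote cell death, and the miR-290 cluster is the main microRNA cluster of mouse ESCs, where it speeds the passage from G1 to S phase.

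The mature microRNAs are shown because their seeds tie the clusters together. All 13 microRNA genes of the clusters matched an entry of the RefSeq table, taken with the GRCm38.p6 assembly, which gave 24 mature sequences. For Mir292 it gave only the 5′ arm and for Mir19a only the 3′ arm, so the seeds of their other arms were not compared. Capitals mark bases 2 to 8. In the miR-17-92 cluster, miR-17-5p and miR-20a-5p share the seed AAAGUGC, miR-18a-5p has AAGGUGC, miR-19a-3p and miR-19b-3p share GUGCAAA, and miR-92a-3p stands alone.
miR-17-5p: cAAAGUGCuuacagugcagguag
miR-20a-5p: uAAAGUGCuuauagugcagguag
miR-18a-5p: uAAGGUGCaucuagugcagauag
miR-19a-3p: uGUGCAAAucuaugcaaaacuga
miR-19b-3p: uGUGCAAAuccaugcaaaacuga
miR-92a-3p: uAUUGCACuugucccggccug
In the miR-290 cluster, miR-291a-3p, miR-294-3p and miR-295-3p share the seed AAGUGCU, miR-290a-3p has AAGUGCC and miR-291b-3p has AAGUGCA. These 3 forms share 6 bases with the seed of miR-17-5p and miR-20a-5p at an offset of 1 base. The 5′ arms of miR-290a, miR-292a and miR-293 share another seed, CUCAAAC, and miR-293-3p has a seed of its own.
miR-290a-3p: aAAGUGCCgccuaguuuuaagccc
miR-291a-3p: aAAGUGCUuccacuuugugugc
miR-291b-3p: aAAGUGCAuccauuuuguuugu
miR-294-3p: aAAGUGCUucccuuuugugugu
miR-295-3p: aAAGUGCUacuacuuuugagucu
miR-293-3p: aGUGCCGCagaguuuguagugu
miR-292a-5p: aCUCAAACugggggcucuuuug

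The stretches of genome under the peaks are shown next, since the results turn on where the E-box lies in them. All are from mm9, plus strand, which is the strand of both clusters, and capitals mark the E-box or its related form. The first runs across the annotated start of Mir17hg, the host transcript of miR-17-92, and its only E-box, CACGTG, lies 10 bp into the transcript.
chr14:115441851-115442150: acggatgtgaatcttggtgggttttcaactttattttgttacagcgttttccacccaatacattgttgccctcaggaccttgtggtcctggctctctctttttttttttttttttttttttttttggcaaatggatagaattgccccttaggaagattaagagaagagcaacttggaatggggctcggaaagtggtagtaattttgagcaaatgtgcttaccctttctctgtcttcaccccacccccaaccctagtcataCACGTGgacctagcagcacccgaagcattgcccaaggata
The second is the centre of the Max peak further upstream of miR-17-92, where the Bio-Myc list has no peak. It holds no CACGTG, and the capitals mark CACGCG, the related form.
chr14:115439409-115439708: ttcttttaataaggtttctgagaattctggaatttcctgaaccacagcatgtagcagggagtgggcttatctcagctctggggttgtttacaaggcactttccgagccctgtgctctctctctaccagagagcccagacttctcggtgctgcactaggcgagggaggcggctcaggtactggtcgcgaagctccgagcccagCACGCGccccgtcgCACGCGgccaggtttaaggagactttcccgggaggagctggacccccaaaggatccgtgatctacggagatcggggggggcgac
The third is the centre of the only Max peak in the window of miR-290, with the related form CATGTG in capitals.
chr7:3211580-3211879: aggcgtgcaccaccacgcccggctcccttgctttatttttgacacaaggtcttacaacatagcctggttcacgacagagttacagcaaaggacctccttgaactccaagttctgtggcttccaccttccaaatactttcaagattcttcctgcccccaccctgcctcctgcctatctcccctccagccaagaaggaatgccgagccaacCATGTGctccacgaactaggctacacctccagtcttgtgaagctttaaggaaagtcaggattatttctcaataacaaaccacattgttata

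At miR-17-92 the Bio-Myc list had 1 peak and the Max list 2, and at miR-290 the Bio-Myc list had none and the Max list 1. All 4 listed members of miR-17-92, which share 1 locus and so count once, had a peak of both lists in their window, against 5.83% of the 1577 annotated microRNA genes (95% Wilson interval 4.78 to 7.10%, for counting error over genes only). Bio-Myc was present for 6.47% of these genes (5.36 to 7.79%) and Max for 14.0% (12.4 to 15.8%). The 6 listed members of miR-290, which also share 1 locus and so count once, had Max without Bio-Myc, as did 8.18% (6.93 to 9.64%). The deposited score is the negative log10 of the p-value given by the peak caller MACS, times 10, and peaks below a score of 80 are absent from the lists.

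**Figure D1:**
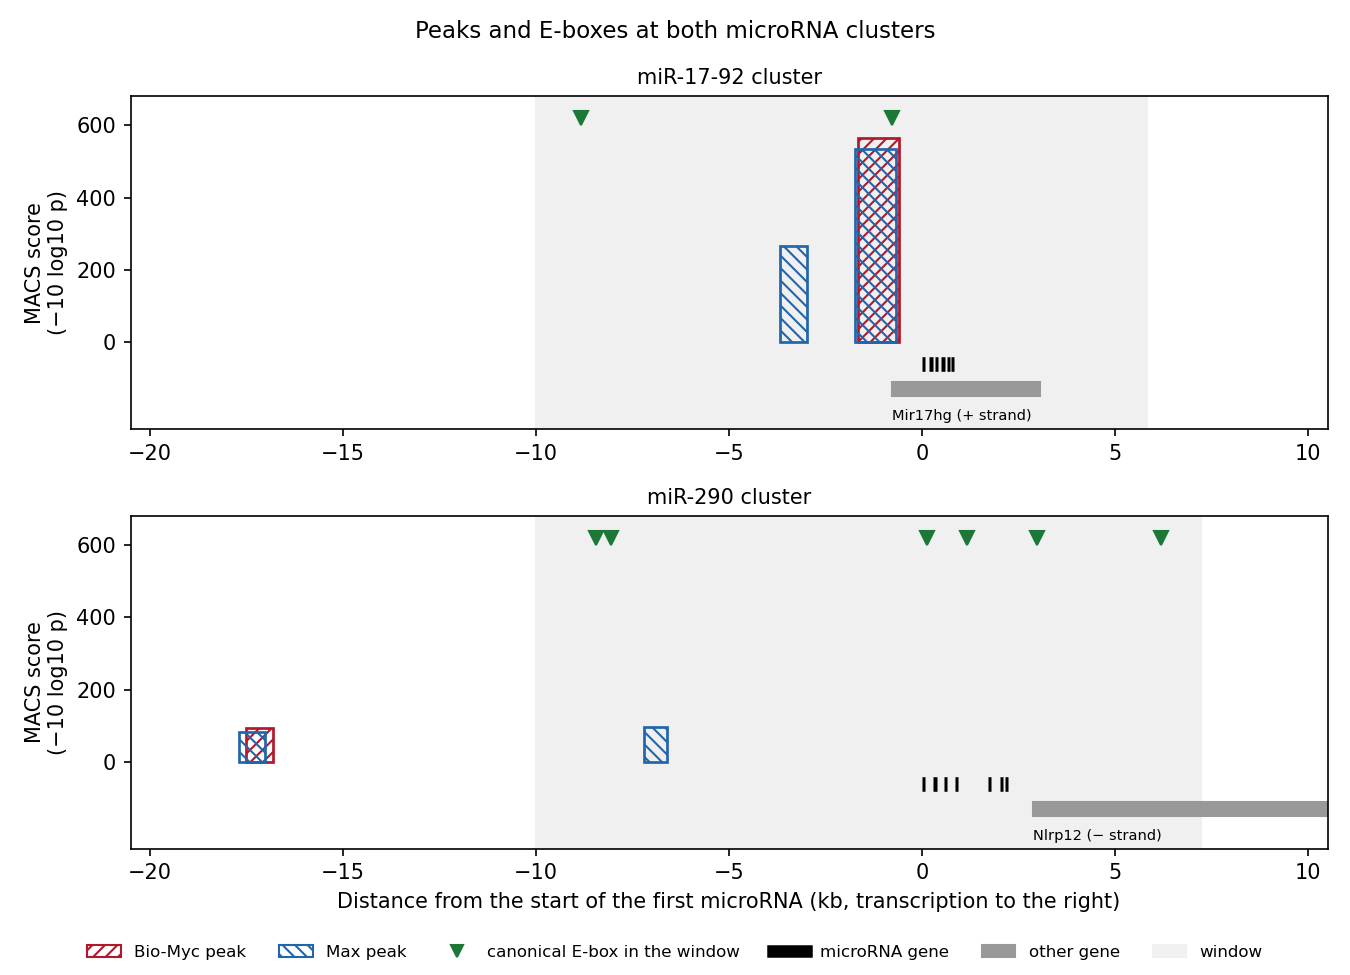
Map of both clusters, with distance from the first microRNA in kb on the x axis and the MACS score of each peak as the height of its box. The shared Bio-Myc and Max peak (scores 566 and 536) lies just before miR-17-92, while the 6 triangles of the miR-290 window, each a canonical E-box, stand away from its single Max peak (97.6).

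The Bio-Myc peak of miR-17-92 lay at chr14:115441231-115442285, was 1055 bp wide and had a score of 566. It was number 101 of 3962 when the list was ordered by score, within the top 2.55%, while the median score of the list was 129. The Max peak over it, at chr14:115441153-115442209, was 1057 bp wide with a score of 536. This was number 831 of 11570 (top 7.18%), against a median of 160. The pair was nearly coincident, with 979 bp in common, or 92.8% of the Bio-Myc peak and 92.6% of the Max peak, and centres 77 bp apart. Scores were ranked within each list only, since they depend on the reads of each library.

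Both peaks covered the annotated start of Mir17hg (ENSMUSG00000089726.1, chr14:115442101-115445949), a noncoding transcript from which the 6 microRNAs of the cluster are cut. The Bio-Myc peak ran from 870 bp before the start to 184 bp past it, and the Max peak from 948 bp before to 108 bp past. The first exon is 79 bp long and was covered whole by both peaks, and the second, of 3457 bp, carries all 6 hairpins and was outside both. A shorter annotated transcript of the same gene begins at Mir17 itself.

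The hairpins therefore lay downstream of the peaks and none was covered. Mir17 (ENSMUSG00000065508.1, chr14:115442893-115442976) was separated from the Bio-Myc peak by 608 bp and from the Max peak by 684 bp. Mir18 (ENSMUSG00000065403.1, chr14:115443073-115443168) was 788 and 864 bp away, and Mir20a (ENSMUSG00000065442.1, chr14:115443379-115443485) was 1094 and 1170 bp away. Mir92-1 (ENSMUSG00000076062.1, chr14:115443649-115443728), the last of the cluster, was 1364 and 1440 bp away. Mir19a and Mir19b-1, which are not among the listed members, fell between these, 937 and 1242 bp (Bio-Myc) and 1013 and 1318 bp (Max) away. The whole cluster spans only 836 bp, so 1 promoter peak is the nearest peak of every member in both lists.

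**Figure D2:**
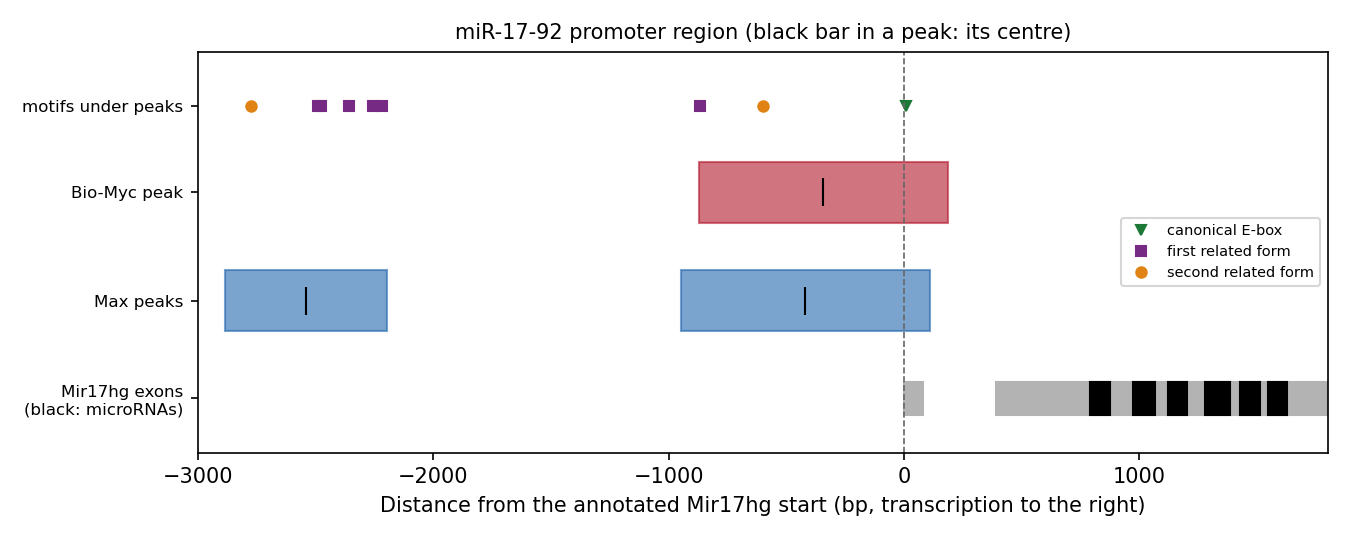
Peaks, motifs and exons around the start of Mir17hg, with distance in bp on the x axis. First and second related forms are CACGCG and CATGTG on either strand, neighbouring marks merge, and the single canonical E-box sits at the start of the first exon, away from the centres of both peaks.

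The only CACGTG under the peaks of miR-17-92 lay at chr14:115442111-115442116, in exon 1 of Mir17hg, and both peaks covered it. It was 777 bp upstream of Mir17. Both strands were searched, and as a palindrome it was counted once per position. The site stood 355 bp away from the middle of the Bio-Myc peak and 432 bp away from the middle of the Max peak, so the central 500 bp of neither peak held a CACGTG. This E-box thus lay in the downstream part of each peak, near its edge in the Max peak.

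Over the whole lists, 50.1% of 3962 peaks for Bio-Myc and 38.0% of 11570 for Max had a CACGTG. Among peaks within 20% of the same width the shares were 49.9% of 1803 for Bio-Myc and 42.3% of 3892 for Max. Among peaks within 20% of the same score they were 73.6% of 91 and 61.5% of 642. An E-box was thus common among peaks of this height, and in both lists the share was higher among peaks of like score than of like width.

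The other CACGTG of the window was 8820 bp upstream of Mir17 and under no peak. Its surroundings are shown to set a covered and an uncovered E-box side by side, and all 32-base words of the 100 bp around each of the pair occur once in the genome.
E-box without a peak, chr14:115434038-115434103: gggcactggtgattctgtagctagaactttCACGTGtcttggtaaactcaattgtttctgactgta
E-box under both peaks, chr14:115442081-115442146: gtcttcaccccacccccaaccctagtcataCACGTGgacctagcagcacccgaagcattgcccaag

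Related forms of the E-box were counted under the same peaks on either strand. The pair of overlapping peaks held 1 CACGCG, at chr14:115441235-115441240, close to the upstream edge for Bio-Myc and 521 bp from the centre, a motif found in 47.0% of Bio-Myc peaks and 49.5% of Max peaks of like width. It also held 1 CATGTG, at chr14:115441502-115441507, which was 254 bp from the Bio-Myc centre and 177 bp from the Max centre. CATGTG occurred in 41.2% and 33.5% of peaks of like width, and CATGCG, found in 27.0% and 26.0%, was not in these peaks. The CATGTG site was the E-box form nearest to the centre of either peak. As a measure of CpG content, the palindrome CGCGCG occurred 2 times under the Bio-Myc peak (at least once in 42.2% and at least as often in 21.4% of peaks of like width) and 3 times under the Max peak (43.9% and 10.4%). CCCGGG occurred once under each (50.9% and 56.3%), and CTCGAG under neither (17.5% and 20.7%).

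The upstream end of the Bio-Myc peak, with the CACGCG in capitals as it reads on the plus strand, lies at the opposite end from the E-box of exon 1.
chr14:115441231-115441480: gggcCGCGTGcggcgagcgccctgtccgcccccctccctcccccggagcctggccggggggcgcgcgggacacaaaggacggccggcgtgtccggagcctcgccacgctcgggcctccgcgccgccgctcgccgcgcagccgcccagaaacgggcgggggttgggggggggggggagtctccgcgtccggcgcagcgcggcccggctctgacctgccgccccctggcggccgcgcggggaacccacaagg
The peak as a whole was 56.6% G+C, where the median of the Bio-Myc list was 58.0%, and held 64 CpGs. Its CpG observed to expected ratio was 0.761, above that of 59.8% of the list. The Max peak was 60.1% G+C with 78 CpGs and a ratio of 0.822, above that of 77.3% of its list. Both were thus close to the middle of their lists in G+C and on the CpG-rich side.

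The Max list had a further peak upstream of miR-17-92, at chr14:115439215-115439901, with no Bio-Myc peak over it. It was 687 bp wide with a score of 266, number 2951 of 11570 (top 25.5%), and was separated from the promoter peak by 1251 bp. Its centre was 3335 bp upstream of Mir17. This peak had no CACGTG, like most Max peaks of its width, of which 30.3% of 5374 had one. It held CACGCG 5 times, at 55, 69, 185, 288 and 326 bp from its centre, and CATGTG once.

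CACGCG occurred at least once in 29.0% of the 5374 Max peaks of like width and at least as often as here in 0.223%, a count looked up after the sites had been seen. The last of the 5 shares bases with a CGCGCG, and the peak was CpG-dense, with 53 CpGs and an observed to expected ratio of 0.903, above that of 89.9% of the Max list. CGCGCG occurred at least once in 25.5% of these peaks, CCCGGG, present once here, in 38.6%, CATGTG in 29.4%, CATGCG, absent here, in 18.0% and CTCGAG, also absent, in 11.6%. The part of CpG density in the number of CACGCG sites was not tested. Of the 9 CACGCG in the window of miR-17-92, 6 were under a Max peak and 3 under none. For CATGTG 2 of 16 were under a Max peak, for CGCGCG 4 of 7, for CCCGGG 2 of 10 and for CTCGAG 0 of 1.

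The miR-290 cluster differed from miR-17-92 in both lists. Its window, at chr7:3208627-3225842, held no Bio-Myc peak. The 1 Max peak, at chr7:3211434-3212025, was 592 bp wide and had a score of 97.6, number 9634 of 11570, so 83.3% of the list scored as high or higher. It ended 6602 bp upstream of Mir290, and it was not counted with a p-value limit of 1e-15, with a Max list as short as the Bio-Myc list or with a window of 5 kb upstream. With 45.1% G+C (3.37% of the Max list was lower), 11 CpGs and an observed to expected ratio of 0.379, it was less CpG-rich than both Max peaks at miR-17-92.

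**Figure D3:**
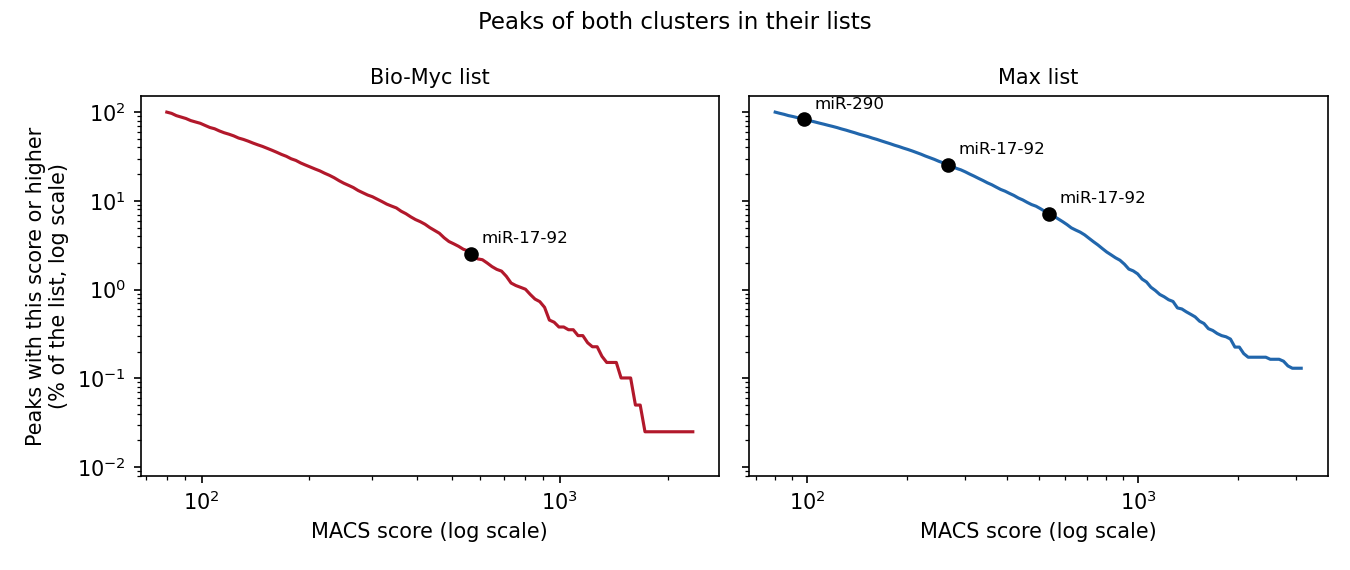
Share of each list at or above a given MACS score, both axes on a log scale, with the peaks of the 2 clusters as points. The miR-17-92 peaks sit at 2.55% in the Bio-Myc list and at 7.18% and 25.5% in the Max list, and the miR-290 peak at 83.3%.

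In the order of the cluster, the distance to this Max peak rose from 6.60 kb for Mir290 (ENSMUSG00000077815.1, chr7:3218627-3218709) to 8.75 kb for Mir295 (ENSMUSG00000077886.1, chr7:3220774-3220842). Mir291a (ENSMUSG00000078008.1) was 6.89 kb from it, Mir292 (ENSMUSG00000078041.1) 7.17 kb, Mir293 (ENSMUSG00000078035.1) 8.32 kb and Mir294 (ENSMUSG00000077903.1) 8.62 kb. Mir291b, which is not among the listed members, was 7.46 kb away. For every gene of the cluster the nearest peak was upstream in both lists.

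The nearest Bio-Myc peak, at chr7:3201119-3201808, ended 16.8 kb upstream of Mir290 and 19.0 kb upstream of Mir295, outside the window. Its score was 93.2, number 3199 of 3962, and it shared 494 bp with a Max peak at chr7:3200940-3201612 with a score of 82.7, number 11199 of 11570. Both had scores close to the limit of 80, and neither held a CACGTG. A further Bio-Myc peak, at chr7:3193475-3194361, had a score of 110, a CACGTG, and no Max peak over it, with its centre 24.7 kb upstream of Mir290. These peaks outside the window are given for their positions and were not counted for the cluster.

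The window of miR-290 had more E-boxes than that of miR-17-92, with 6 CACGTG against 2, but none was under a peak of either list. Over the 1266 microRNA clusters of the annotation, where genes of 1 strand less than 10 kb apart were joined, the median was 1 CACGTG per window and 27.3% of windows had 3 or more. At miR-290 they lay 8442 and 8050 bp upstream of Mir290, and 121, 1155, 2977 and 6189 bp downstream of its first base. Upstream distances were taken from the end of the motif and downstream ones from its middle. The third is between Mir290 and Mir291a and the fourth between Mir291b and Mir293, inside the transcribed cluster. The surroundings of 5 are shown because these are sites that an E-box search alone would have chosen.
chr7:3210150-3210215: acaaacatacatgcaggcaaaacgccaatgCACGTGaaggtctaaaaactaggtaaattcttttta
chr7:3210542-3210607: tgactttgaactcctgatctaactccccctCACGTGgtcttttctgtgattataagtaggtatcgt
chr7:3218716-3218781: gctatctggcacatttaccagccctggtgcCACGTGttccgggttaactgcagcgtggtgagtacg
chr7:3219750-3219815: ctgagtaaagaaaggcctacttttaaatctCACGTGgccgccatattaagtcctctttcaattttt
chr7:3224784-3224849: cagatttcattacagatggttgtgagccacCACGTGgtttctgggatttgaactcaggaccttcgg
The last of these lies in an intron of Nlrp12, a gene on the opposite strand, and the E-box not shown, 2977 bp after the first base of Mir290, is in the 3′ UTR of the same gene. The Max peak of the window held a related form instead, 1 CATGTG at chr7:3211789-3211794, which was 62 bp from the centre of the peak. CATGTG occurred in 27.0% of the 3097 Max peaks of like width and CACGTG in 26.9%. CACGCG and CATGCG, in 25.6% and 14.7% of such peaks, were not found in it, and neither were CGCGCG (22.9%), CCCGGG (35.2%) and CTCGAG (310 of the 3097). Of the 20 CATGTG of the window, 19 were under no peak.

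The authors kept only reads that map to 1 place in the genome, so the share of unique sequence was counted at both loci. Of all 32-base words, 99.4% in the window of miR-17-92 and 88.0% in that of miR-290 occurred once in the genome, and over 25 other listed clusters the share ran from 86.9 to 99.6% with a median of 96.2%. Across the hairpins themselves it was 100% and 98.0%. It was 99.0% for each of the overlapping peaks at miR-17-92, 100% for the Max peak upstream of them and 71.1% for the Max peak of miR-290. Around the 6 E-boxes of miR-290 (100 bp each) it was 87.0, 100, 100, 100, 100 and 11.6%. All words around 4 of them thus occurred once, and these 4 had no peak. Words were matched exactly, whereas the authors' alignment allowed mismatches, so these shares can overstate where reads map to 1 place. The read length is not given in the sources used here, so 32 bases stand in for it, and the part of mappability in the lack of a Bio-Myc peak was not tested.

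No annotated gene other than Mir17hg overlapped the window of miR-17-92. The nearest gene upstream, a U6 small nuclear RNA, was 61.5 kb from the nearest Bio-Myc peak and 59.5 kb from the nearest Max peak. The nearest downstream, Gpc5, a cell-surface heparan sulfate proteoglycan, was 49.2 kb from both, and these were the promoter peaks of Mir17hg. At miR-290, Nlrp12, a gene of innate immunity on the opposite strand, ends 668 bp after Mir295. Its start was 47.7 kb from a Bio-Myc peak and 37.5 kb from a Max peak, and AU018091, the next gene upstream, was 24.3 and 31.7 kb away. Myadm, the next gene downstream, had a Bio-Myc peak of score 92.5 at 13.5 kb from a start site and its nearest Max peak at 77.0 kb. No neighbour of either cluster had a peak within 1 kb of its start.

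Among all annotated microRNA clusters, miR-17-92 was near the top in both lists and miR-290 near the bottom of those with a Max peak. Of 1266 clusters, 88 had a Bio-Myc peak in the window, and with its score of 566 miR-17-92 was number 4 of them, where the median strongest score was 156. The 3 above it, AC151602.1 (1163), AC124992.1 (657) and AL671866.2 (575), are single microRNA genes named by clone, so miR-17-92 was number 1 of the 40 bound clusters with a named microRNA. In the Max list it was number 22 of 192 clusters (12 of 83 named), with a median of 208. The miR-290 cluster was number 176 of the same 192 (72 of 83 named). No spread between libraries exists to say whether neighbours in this order differ.

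**Figure D4:**
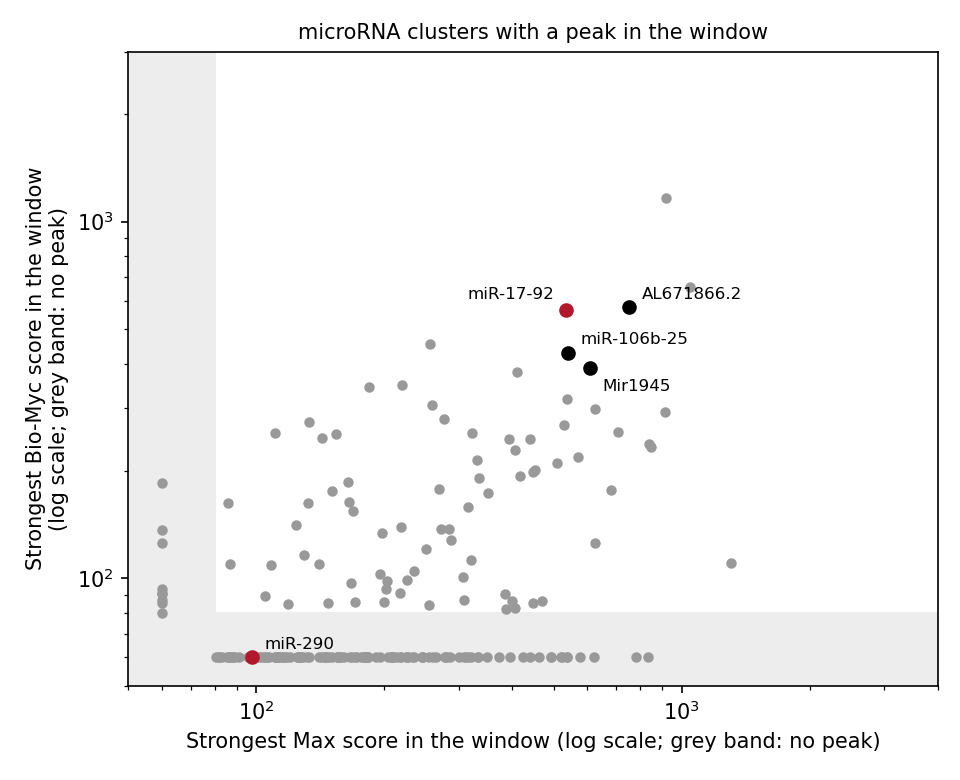
Strongest Max score (x) and strongest Bio-Myc score (y) in the window of each microRNA cluster with a peak, on log scales, with clusters that lack a peak placed in the grey bands. The miR-17-92 cluster (Max 536, Bio-Myc 566) has miR-106b-25 (Max 542, Bio-Myc 429) beside it, and miR-290 lies in the band without a Bio-Myc peak.

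The clusters most like miR-17-92, by the distance between the log10 scores of both lists over the 79 clusters with both, were Mir25/Mir93/Mir106b at 0.121, AL671866.2 at 0.148 and Mir1945 at 0.172. The first is the miR-106b-25 cluster, a paralogue of miR-17-92 that lies within Mcm7, a subunit of the replicative helicase. Its strongest Bio-Myc and Max scores were 429 and 542, those of AL671866.2 were 575 and 752, and those of Mir1945 were 389 and 609. No such neighbours were sought for miR-290, which has no Bio-Myc score.

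The other paralogue of miR-17-92 had no peak. At miR-106b-25 (chr5:138606549-138607046, minus strand) the Bio-Myc peak lay at chr5:138612027-138613877 and the strongest Max peak at chr5:138611903-138613754, both upstream of the cluster. Of the 3 CACGTG in that window, 1 was under a peak, a second Max peak on the other side of the cluster, and was 77 bp from its centre. The promoter-side peaks of miR-106b-25 thus held no CACGTG, where those of miR-17-92 held 1. The window of miR-106a-363 on chromosome X held 6 CACGTG and no peak of either list.

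Of 25 other clusters listed by family or by what is known of them, 4 had Bio-Myc peaks and 8 had Max peaks, the 4 all being among the 8, and 17 had neither. Over all 1266 clusters the shares were 6.95% for Bio-Myc, 15.2% for Max and 6.24% for both, and the counts by family below are too small to be read against them. The 4 listed clusters with both became 2 with a window of 5 kb upstream or a p-value limit of 1e-15, and 7 with 20 kb upstream. Among 4 clusters known for expression in ESCs, the group to which miR-290 belongs, miR-302/miR-367, miR-200b-429 and miR-200c-141 had no peak, and miR-182-183 had a Max peak with a score of 144. Of 6 let-7 clusters, whose products promote differentiation, let-7a-1/f-1/d had scores of 245 (Bio-Myc) and 441 (Max) with 2 CACGTG under both peaks, let-7g had 86.8 and 309 in separate peaks, and let-7i had a Max peak of 148. The clusters let-7c-2/b, miR-99b/let-7e/miR-125a and miR-100/let-7a-2 had none.

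Of 11 clusters reported elsewhere as lowered by Myc, miR-15b-16-2, within Smc4, a condensin subunit, had peaks of both lists (109 and 108). A Max peak alone was present at miR-22 (522), with a CACGTG 29 bp from its centre, and at miR-23a/miR-27a/miR-24-2 (310). The other 8, miR-15a-16-1, miR-26a-1, miR-26a-2, miR-29a/b-1, miR-29b-2/c, miR-34a, miR-34b/c and miR-23b/miR-27b/miR-24-1, had no peak in either list. Neither had miR-21 and miR-221/miR-222. The Bio-Myc score of miR-17-92 was thus higher than that of any of the 25 listed clusters, of which miR-106b-25 came closest.

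The proteins that cut and use these microRNAs were examined at their own promoters, as the other genes of the pathway. Within 1 kb of an annotated start, 13 of 23 genes had Bio-Myc, 20 had Max and 13 had both. Over all 22380 protein-coding genes the shares were 14.6% for Bio-Myc, 34.8% for Max and 12.7% for both. The genes were chosen for their role and with the lists known, so the counts describe them only. At a p-value limit of 1e-15, 5 of the 13 had both.

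**Figure D5:**
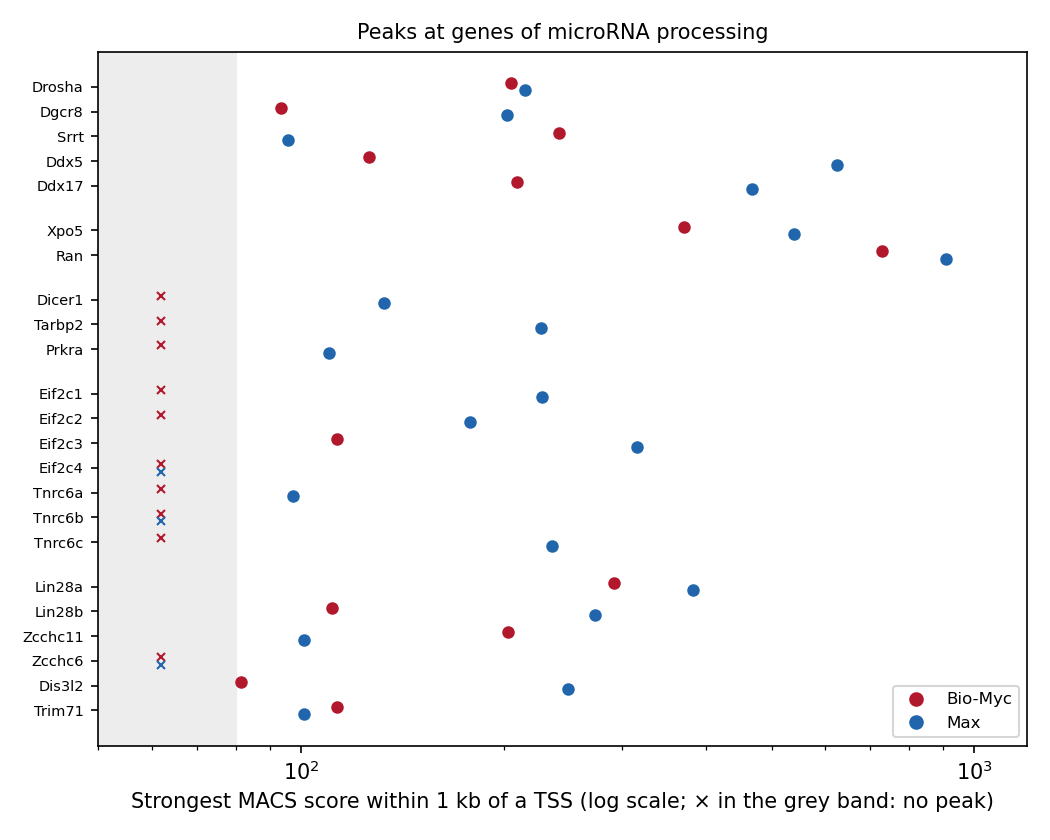
Strongest MACS score within 1 kb of a start site (log scale) for 23 genes of microRNA processing, in 5 groups from nuclear cleavage at the top to the let-7 pathway at the bottom, with Bio-Myc in red, Max in blue and crosses for no peak. The 3 genes of cytoplasmic cleavage have a Max peak and no Bio-Myc peak, where 34.8% of protein-coding genes have Max and 14.6% Bio-Myc. Of the 23 genes, Ran has the highest Bio-Myc and Max scores (730 and 908).

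All 5 genes of the nuclear step had both peaks at the deposited limit, against 12.7% of protein-coding genes. At 1e-15 this held for 2 of them, Drosha and Ddx17, against 5.85%, and with a Max list as short as the Bio-Myc list for Ddx5 and Ddx17, against 8.33%. Drosha, the nuclease, had scores of 205 (Bio-Myc) and 215 (Max), and its partner Dgcr8 had 93.4 and 202. Srrt, which links capped transcripts to Drosha, had 242 and 95.8. The helicases Ddx5 (126 and 626) and Ddx17 (209 and 467) assist Drosha, and Ddx5 alone of the 5 had a CACGTG under its peaks. For export, Xpo5, the carrier of the hairpins, had 370 and 539 with 1 CACGTG under each peak, and Ran, the GTPase that drives it, had 730 and 908 with 2. Both export genes kept both peaks under these alternatives.

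At the cytoplasmic step only the Max list had peaks, which is the longer list (11570 peaks against 3962). Over all protein-coding genes, 34.8% had Max, 14.6% Bio-Myc and 12.7% both. Dicer1 had a Max score of 133, and its nearest Bio-Myc peak was 246835 bp from a start site. Its partners Tarbp2 and Prkra had Max scores of 227 and 110. Of this step only Tarbp2 was above 217, the score set by a Max list as short as the Bio-Myc list. Of 7 Argonaute genes and their partners, Eif2c3 had both (113 and 316), while Eif2c1 (228), Eif2c2 (178), Tnrc6a (97.4) and Tnrc6c (236) had a Max peak alone and Eif2c4 and Tnrc6b had none. At a p-value limit of 1e-15 none of these 10 genes had both, against 5.85% of protein-coding genes. With the shorter Max list Eif2c3 did, against 8.33%. Whether the steps differ was not tested.

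Of 6 genes of the let-7 pathway, 5 had both peaks, against 12.7% of protein-coding genes. At 1e-15, 1 of them (Lin28a) remained, against 5.85%. With the shorter Max list 3 remained (Lin28a, Lin28b and Dis3l2), against 8.33%. Lin28a, which blocks let-7 maturation in ESCs, had scores of 292 and 382, with 2 CACGTG under the Bio-Myc peak and 1 under the Max peak. Its paralogue Lin28b had 111 and 273, but at different places, with the Bio-Myc peak at chr10:45188856-45190015 and the Max peak at chr10:45205572-45206685. Zcchc11, which adds uridines to let-7 precursors, had 203 and 101, Dis3l2, which degrades the uridylated precursors, 81.5 and 249, and Trim71, a target of let-7, 113 and 101. Zcchc6, a second uridylating enzyme, had neither. The Bio-Myc score of miR-17-92 (566) exceeded those of all these genes but Ran.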

How the data were processed

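The members, gene lists and windows were chosen with earlier results of these data known. Reads were aligned by the authors to mm9 (Bowtie 0.12.7, unique hits), duplicates were collapsed, and MACS 1.4.1 called peaks over the mock or IgG ChIP. CASAVA 1.8 is also in the submitters' processing notes. Each of the deposited lists gives, per peak, its position and a score (the p-value of MACS as its negative log10, multiplied by 10), with a lowest score of 80.0 (p-value 1e-08). No reads were used, so depth is unknown and no test was run.

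A peak counted for a window or start site when they shared at least 1 bp. Genes came from GENCODE M1, on the assembly of mm9, and motifs and 32-base words from the mm9 sequence. Coordinates are 1-based. Of 57 genes in the listed clusters, 50 matched by name, 3 by hairpin sequence and 4 not at all, although each of the 25 clusters kept at least 1 gene. Named were all cluster members, host and neighbouring genes, all listed clusters and processing genes, and the 3 clusters nearest in score. Other windows, score limits, list lengths, motifs and gene sets were tried. The counting steps were tested on simulated data, and 14 of 14 returned the known answer. Python 3.11.15, numpy 2.4.6, pysam 0.24.0 and matplotlib 3.10.9 were used.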

Additional observations from a re-analysis of the deposited data

How the results depend on the processing

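Of 54 alternatives, 32 left the value within its limits and 22 moved it. Some of the 32 could not have moved the value. A shorter Max list cannot change a Bio-Myc count, and where no peak was left at miR-290 its E-box count had to stay at 0. The peak counts of miR-17-92 were the same in every alternative run on them. At miR-290, a window of 20 kb upstream and 10 kb downstream gave 1 Bio-Myc and 2 Max peaks, while the Max peak was lost (0) with 5 kb upstream, with a p-value limit of 1e-15 (a score of 150) and with the Max list reduced to the length of the Bio-Myc list, which sets a score of 217. The E-box count of miR-17-92 went from 1 to 0 in the central 500 bp of peaks and to 9 with the related forms, and that of miR-290 from 0 to 1 with the related forms. The share of microRNA genes with a Bio-Myc peak was 4.25% with 5 kb, 11.2% with 20 kb, 3.36% at 1e-15 and 9.09% over the 550 genes with a microRNA symbol, an alternative chosen after seeing the data. For Max these were 10.4, 22.4, 9.58 and 19.5%, and 7.04% with the reduced list. Listed clusters with both peaks numbered 2 with 5 kb, 7 with 20 kb and 2 at 1e-15, against 4. Processing genes with both numbered 5 at 1e-15 and 8 with the reduced Max list, against 13.

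With 1 library per ChIP there is no spread between cultures. The tagged Myc comes from 1 clone and Max from parental cells, so clone and antibody cannot be told apart in a difference between the lists. Regions under a score of 80 are not in the lists. No paired analysis was possible because each ChIP has 1 library.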
